A study of Mus musculus with 15 samples.

Results

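The germline genes described here are *Tex40* and 8 classical genes of germ cells, *Dazl*, *Ddx4*, *Mael*, *Sycp1*, *Sycp3*, *Tex101*, *Stk31* and *Tdrd1*, and all 9 had a row among the 17454 genes measured. *Tex40* was selected on measured values of these libraries, and which comparison they came from is not given in the sources used here, so its values are a description, and the other 8 stand beside it as classical germline genes. RNA-seq was performed on EMPs (erythro-myeloid progenitors, sorted as LIN-, SCA1-, KIT+, CD41+ and CD16/32+ cells) from individual yolk sacs at E10.5. All mice were C57BL/6 and carried *Ezh2*fl/fl. Tie2-Ezh2-KO EMPs (5 libraries) also carried Tie2-CreTg/+, a Cre active in endothelium and in the blood cells that arise from it, and Vav-Ezh2-KO EMPs (5 libraries) carried Vav-CreTg/+, a Cre active in hematopoietic cells. Their controls had no Cre and are labelled Tie2-Cre+/+ (Tie2-Ezh2-WT, 3 libraries) and Vav-Cre+/+ (Vav-Ezh2-WT, 2 libraries), and the 5 together are called WT below. The labels give 500 cells per library and the methods of the study another number, so the input is uncertain. Reads on genes ranged from 10407398 to 41025074 per library, with a median of 16091836.

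Germline genes are used in germ cells and kept silent in most somatic cells, through DNA methylation of their promoters and through a variant polycomb complex, PRC1.6, that is brought to DNA by E2F6 and by MGA with MAX. EZH2 is the main enzyme of a different polycomb complex, PRC2, which places H3K27me3 on silent genes. *Tex40*, now named *Catsperz*, encodes an auxiliary subunit of CatSper, the calcium channel of the sperm tail.

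*Ezh2* itself was read first, as a check of the labels. Expression is given in RPKM, the reads on a gene scaled to the length of its exons and to the reads on all genes of the library. *Ezh2* had 36.9, 39.5 and 30.1 RPKM in Tie2-Ezh2-WT replicates 4, 10 and 12 and 42 and 41.5 in Vav-Ezh2-WT replicates 4 and 6, from 1024 to 3291 reads. The Tie2-Ezh2-KO replicates 7, 9, 11, 13 and 17 had 27.8, 26.2, 24.8, 29.5 and 26.5 RPKM, and the Vav-Ezh2-KO replicates 1, 9, 10, 26 and 28 had 33.7, 42.4, 37.8, 38.1 and 34. All Tie2-Ezh2-KO libraries thus lay below all others, whereas Vav-Ezh2-KO libraries overlapped with WT. Means were 38 ± 4.84 RPKM in WT, 27 ± 1.78 in Tie2-Ezh2-KO and 37.2 ± 3.56 in Vav-Ezh2-KO EMPs (SD, n = 5 each). The difference from WT was -0.48 on the log2(RPKM + 0.2) scale in Tie2-Ezh2-KO (limma, standard error 0.12, adjusted p = 0.0418, and from 0.0134 to 0.344 over 20 alternatives, of which 9 kept the call) and -0.02 in Vav-Ezh2-KO EMPs (standard error 0.11, adjusted p = 0.969). These values cover the whole transcript, and reads on the deleted part were not separated, so they do not show in which libraries *Ezh2* was deleted.

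All 8 EMP markers were present in every library, with *Gata1* the most abundant, from 154 to 214 RPKM, and *Kit* from 15.2 to 45.8. Of 9 markers of primordial germ cells, 6 had a row, and *Dppa3*, *Pou5f1* and *Sox2* did not. *Prdm14* reached 0.0741 RPKM, *Tfap2c* 0.256, *Nanos3* 0.65 and *Alpl* 3.66 at most, *Dnd1* lay between 0.137 and 1.82, and *Nanog* between 26.4 and 70.7 in all libraries. The sum of the 6 was 27 to 61.3 RPKM in WT, 41.5 to 63.7 in Tie2-Ezh2-KO and 31.3 to 72 in Vav-Ezh2-KO EMPs, and these ranges overlapped. *Nanog* made up most of every sum, so the sums follow *Nanog* and are not a measure of germ cells.

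*Tex40* was read in every library. In WT it was at 1.35, 1.62 and 1.84 RPKM in Tie2-Ezh2-WT replicates 4, 10 and 12 and at 1.63 and 1.41 in Vav-Ezh2-WT replicates 4 and 6, from 11 to 59 reads per library. The Tie2-Ezh2-KO replicates, in the order given above, had 9.56, 25.5, 17.5, 11.7 and 9.87 RPKM with 119 to 304 reads, and the Vav-Ezh2-KO replicates 1.54, 3.2, 4.25, 3.56 and 0.981 RPKM with 22 to 56 reads. The order of the groups was thus Tie2-Ezh2-KO, then Vav-Ezh2-KO, then WT. Every Tie2-Ezh2-KO library lay above every other library, and Vav-Ezh2-KO libraries lay on both sides of WT, with 3 above and 1 below the range of WT.

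**Figure D1:**
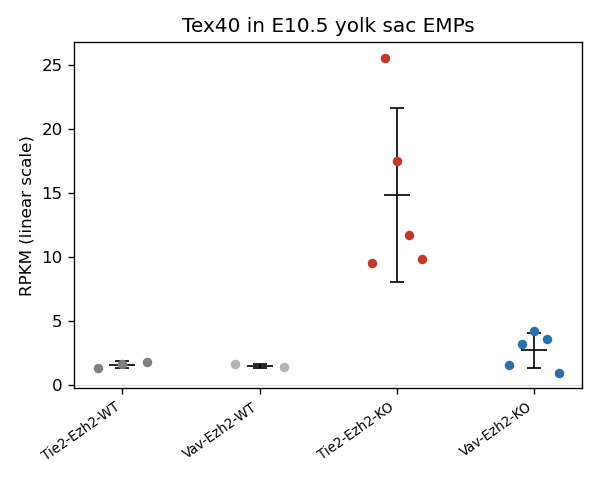
*Tex40* in RPKM on a linear scale, with 1 point per library, and the mean of each group as a short line and its SD as whiskers. The 5 Tie2-Ezh2-KO libraries lie from 9.56 to 25.5 RPKM and the 5 WT libraries from 1.35 to 1.84.

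The mean of *Tex40* was 14.8 ± 6.75 RPKM in Tie2-Ezh2-KO, 2.71 ± 1.39 in Vav-Ezh2-KO and 1.57 ± 0.195 in WT EMPs (SD, n = 5 each), so that the Tie2-Ezh2-KO mean was 9.42 times the WT mean. On the log2(RPKM + 0.2) scale, which understates the change of low genes, the difference from WT was 2.98 in Tie2-Ezh2-KO and 0.56 in Vav-Ezh2-KO, and Tie2-Ezh2-KO lay 2.43 above Vav-Ezh2-KO. No test of *Tex40* is given, because measured values chose the gene and it is not known which libraries they came from. In bulk EMPs, more or fewer cells of a type and more or less RNA per cell cannot be told apart. The mean was 1.52 RPKM in the 2 Vav-Ezh2-WT and 1.6 in the 3 Tie2-Ezh2-WT libraries, whose ranges overlapped.

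*Tex40* lies on chromosome 19 of GRCm38 from 6922426 to 6925380. The row was identified by its length: the RPKM steps gave 781 bases, which is the summed length of the 5 exons of *Catsperz* within its RefSeq span, and *Kcnk4*, which shares *Tex40* as a synonym, has its own row. *Kcnk4*, a potassium channel gene 282 bases away, had 4 reads in a single Tie2-Ezh2-KO library and 0 elsewhere, although GENCODE, unlike RefSeq, extends *Kcnk4* over part of *Tex40* on the same strand.

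On the other side, *Esrra*, a nuclear receptor gene 378 bases away, averaged 0.82 ± 0.149 RPKM (SD, n = 5) in WT libraries and 0.693 ± 0.3 (SD, n = 5) in those of Tie2-Ezh2-KO. Its difference was -0.24 (limma, standard error 0.29, adjusted p = 0.898). The next genes, *Trmt112*, *Prdx5*, *Gpr137* and *Bad*, differed from WT by -0.07, 0.06, -0.52 and 0.07 in Tie2-Ezh2-KO EMPs, and none of them passed the test (adjusted p from 0.815 to 0.952). The tested neighbours of *Tex40* therefore showed no difference past the threshold in this contrast.

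**Figure D2:**
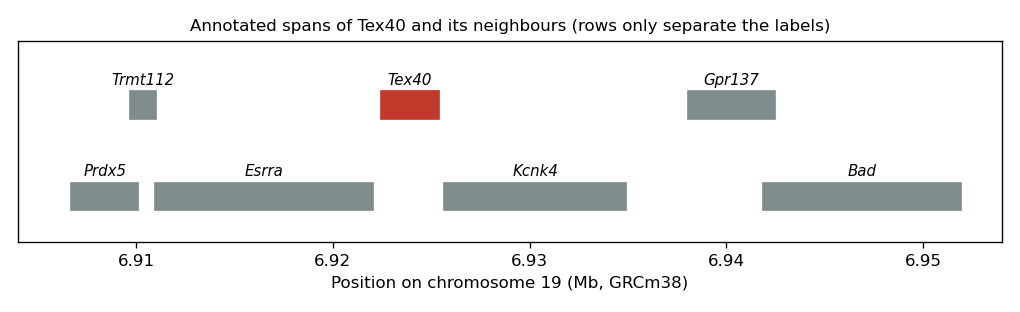
Annotated spans of *Tex40* and the nearest 3 genes on each side that have a row, along chromosome 19 of GRCm38 in Mb, with *Tex40* in red. *Esrra* ends 378 bases before *Tex40* and *Kcnk4* starts 282 bases after it.

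The other 8 genes were low. Of the 9 genes, 6 passed the filter of more than 0.2 RPKM in at least 1 library of a comparison, and *Mael*, *Sycp1* and *Tex101* did not. *Tdrd1*, a Tudor protein of the piRNA pathway that silences transposons in germ cells, had 0, 0.0697 and 0.13 RPKM in Tie2-Ezh2-WT and 0.136 and 0.12 in Vav-Ezh2-WT libraries, from 0 to 29 reads, with replicates in the order used for *Ezh2*. Values were 0.231, 0.685, 0.409, 0.431 and 0.388 RPKM in the Tie2-Ezh2-KO libraries, with 20 to 63 reads, and 0.0455, 0.469, 0, 0.367 and 0 in the Vav-Ezh2-KO libraries, with 0 to 47 reads. All Tie2-Ezh2-KO libraries lay above WT and overlapped with Vav-Ezh2-KO, of which 2 were as high and 3 were at or near 0.

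*Stk31*, a kinase with a Tudor domain that is found in germ cells, was at 0, 0.254 and 0 RPKM in Tie2-Ezh2-WT and 0.124 and 0 in Vav-Ezh2-WT, in the same order of replicates. It was at 0.0775, 0.525, 0, 0.253 and 0.0192 RPKM in Tie2-Ezh2-KO and at 0, 0, 0, 0.107 and 0 in Vav-Ezh2-KO libraries, with at most 26 reads. The 3 groups overlapped. *Mael*, which acts in the same pathway, had 3 reads in Tie2-Ezh2-KO replicate 9 and 0 in every other library. A count of 0 allows up to 3 reads, which for *Mael* is 0.0473 RPKM in the deepest and 0.186 in the shallowest library, for counting error only.

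*Ddx4*, the VASA helicase of germ cells, was at 0.202, 0.244 and 0.265 RPKM in Tie2-Ezh2-WT and at 0.0471 and 0.141 in Vav-Ezh2-WT libraries. It was at 0.0441, 0, 0.995, 0.301 and 0.305 RPKM in Tie2-Ezh2-KO and at 0.46, 0.362, 0.104, 1.28 and 0.0489 in Vav-Ezh2-KO libraries, with at most 42 reads. Tie2-Ezh2-KO libraries lay above and below the range of WT, and Vav-Ezh2-KO libraries lay above and within it. *Dazl*, an RNA-binding protein that controls translation in germ cells, was at 0.588, 0.344 and 0 RPKM in Tie2-Ezh2-WT and 0.274 and 0.0511 in Vav-Ezh2-WT libraries. It was at 0, 0.111, 0, 0 and 0.0422 RPKM in Tie2-Ezh2-KO and at 0.132, 0, 0.0605, 0.0591 and 0.213 in Vav-Ezh2-KO libraries, with at most 18 reads in any library. Its highest values were thus in WT, where values also reached 0, and the groups overlapped. No order of the groups is read from so few reads.

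*Sycp3* and *Sycp1* encode parts of the synaptonemal complex, which joins homologous chromosomes in meiosis. *Sycp3* was at 0.942, 0.507 and 0.0869 RPKM in Tie2-Ezh2-WT and 0 and 0.0447 in Vav-Ezh2-WT libraries. It was at 0, 0.583, 0.782, 0.365 and 0.72 RPKM in Tie2-Ezh2-KO and at 0.189, 0.194, 0, 0.465 and 0.124 in Vav-Ezh2-KO libraries, with at most 13 reads, and the groups overlapped. *Chpt1* overlaps *Sycp3* on the opposite strand, and the strand of a read was not used in the values, so reads of the 2 genes may be mixed. *Sycp1* had 7 reads in Tie2-Ezh2-KO replicate 13 and 0 elsewhere, and *Tex101*, a surface protein of germ cells, had 0 to 2 reads per library.

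Of the 9 genes, 2, *Tex40* and *Tdrd1*, had every Tie2-Ezh2-KO library above every WT library, as had 3.29% of the 14154 genes tested. *Tex40* was the 1 gene of the 9 whose Tie2-Ezh2-KO libraries all lay above Vav-Ezh2-KO, as did those of 3.56% of the 14120 genes tested. These contrasts may hold the values that chose *Tex40*, so no test of the 9 genes is given in them and nothing is read from the counts.

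In Vav-Ezh2-KO against WT, *Ddx4*, *Sycp3* and *Dazl* had libraries of both groups above the filter, and 0 of these 3 passed the threshold by limma, where 0.00733% of 13646 genes passed. An unadjusted p under 0.05 was found for 0 of the 3 and for 1082 of all genes, and limma-voom on recovered reads called 0 of the 3 and 0 of all genes. Whether the choice of the genes used these libraries too is not known. Differences in mean log2(RPKM + 0.2) were 0.51 for *Ddx4* (95% interval from -0.39 to 1.42), -0.16 for *Sycp3* (from -1.16 to 0.85) and -0.49 for *Dazl* (from -1.29 to 0.31). All 3 intervals include 0, so no difference from WT was detectable for these genes with 5 libraries a group at this depth. *Tdrd1* passed the filter through Vav-Ezh2-KO libraries alone and *Stk31* through WT libraries alone, and their differences, 0.19 and -0.25, are a description.

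**Figure D3:**
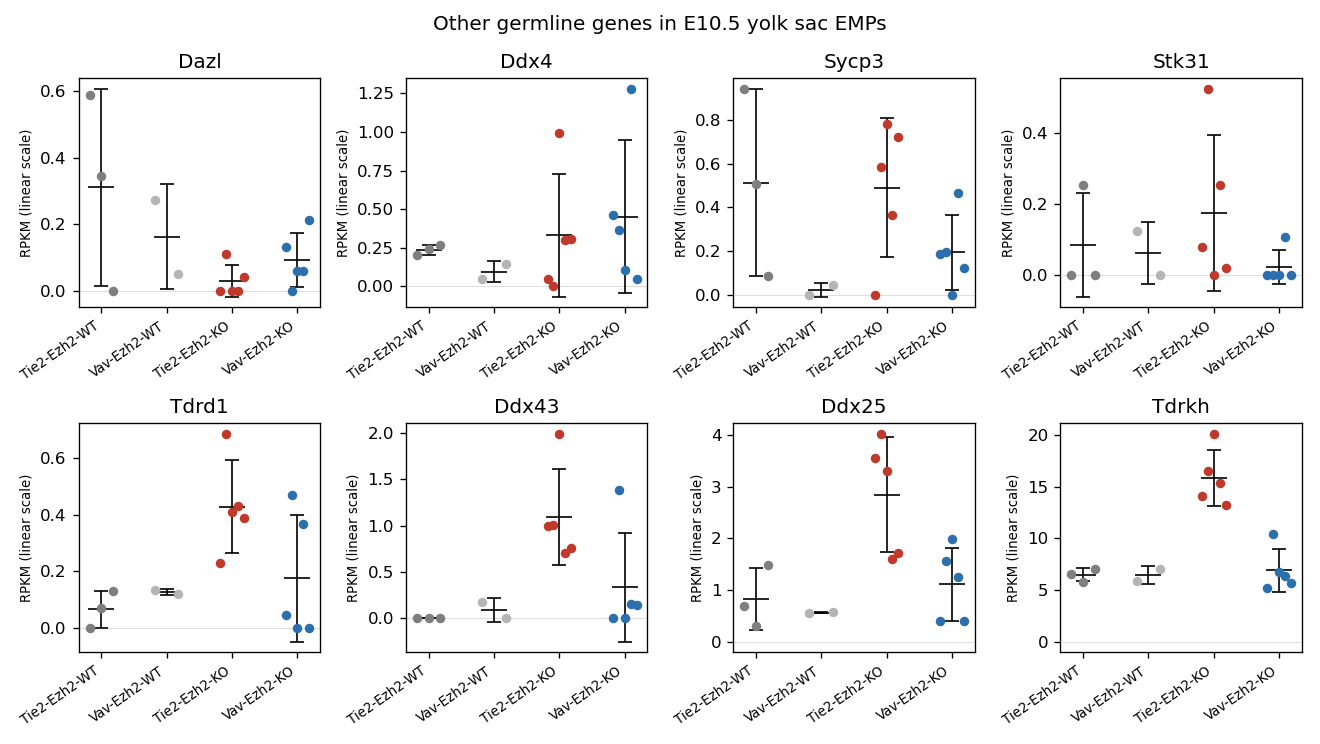
RPKM on a linear scale for 5 of the 9 genes and 3 other germline genes, with 1 point per library, and the mean of each group as a short line and its SD as whiskers. *Ddx43*, *Ddx25* and *Tdrkh* are higher in Tie2-Ezh2-KO than in WT libraries, and *Dazl*, *Ddx4*, *Sycp3* and *Stk31* overlap. For *Tdrd1* every Tie2-Ezh2-KO library lies above every WT library.

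Other germline genes were read from 5 lists, with the 9 genes left out. A row was found for 24 of 28 listed genes of germ cell RNA and piRNA pathways and 32 of 38 of meiosis. It was found for 7 of 11 of the CatSper channel, 19 of 37 of spermatids and sperm and 9 of 17 of oocytes, so the lists are incomplete here. Of 91 listed genes with a row, 66 were tested in Tie2-Ezh2-KO against WT, and 3, *Tdrkh*, *Ddx25* and *Ddx43*, passed and were higher and 0 passed and were lower (4.55%, beside 2.73% of all genes in either direction and 2.42% that were higher). *Ddx43* passed the filter through Tie2-Ezh2-KO libraries alone and had been seen, with its values in these libraries, when the lists were written, so the count is not independent evidence and nothing is read from its share. By limma-voom on recovered reads 2 of the 66 passed, beside 335 of all 14154 genes. An unadjusted p under 0.05 was found for 12 of the 66, 11 higher and 1 lower. Of all 14154 genes 1552 had such a p, 1163 higher and 389 lower, with the same limits. The median difference of the 66 was 0.18, beside 0.01 for all genes tested. This median includes genes at 0 in every WT library, which passed the filter through Tie2-Ezh2-KO libraries alone and could only be higher there, so nothing is read from it, and the other medians below depend on the filter in the same way. All 3 were among the 20 tested genes of germ cell RNA and piRNA pathways, of which 5 had an unadjusted p under 0.05 and whose median was 0.26.

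*Tdrkh*, a Tudor protein that takes part in the trimming of piRNAs, was at 6.56, 5.8 and 7.07 RPKM in Tie2-Ezh2-WT and 5.88 and 7.05 in Vav-Ezh2-WT libraries. It was at 14.1, 16.5, 20.1, 15.3 and 13.2 RPKM in Tie2-Ezh2-KO and at 5.25, 10.4, 6.78, 6.36 and 5.69 in Vav-Ezh2-KO libraries, from 181 to 1085 reads. All Tie2-Ezh2-KO libraries lay above all others. The difference was 1.25 against WT (limma, standard error 0.15, adjusted p = 3.34e-04) and 1.20 against Vav-Ezh2-KO (standard error 0.19, adjusted p = 0.00232). *Tdrkh* was thus higher in Tie2-Ezh2-KO than in WT and in Vav-Ezh2-KO EMPs in these libraries. This gene, *Ddx25* and the repressors below come from lists written with earlier results of these data known, which limits their tests.

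*Ddx43*, an RNA helicase of germ cells, had 0.182 RPKM in Vav-Ezh2-WT replicate 4 and 0 in the other 4 WT libraries. It had 0.994, 1.01, 1.99, 0.709 and 0.76 RPKM in Tie2-Ezh2-KO and 0, 1.38, 0, 0.157 and 0.142 in Vav-Ezh2-KO libraries, with at most 65 reads. Tie2-Ezh2-KO libraries lay above WT, and 1 Vav-Ezh2-KO library lay among them. The difference from WT, 2.43, is a description, because no WT library passed the filter. It was 0.99 with a pseudocount of 1, 3.97 with a pseudocount of 0.05 and 5.73 by limma-voom on recovered reads.

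*Ddx25*, a helicase needed for sperm formation, had 0.688, 0.302 and 1.48 RPKM in Tie2-Ezh2-WT and 0.561 and 0.568 in Vav-Ezh2-WT libraries. Values were 3.56, 4.02, 3.3, 1.6 and 1.71 RPKM in the Tie2-Ezh2-KO and 0.402, 1.56, 1.98, 1.25 and 0.395 in the Vav-Ezh2-KO libraries, with 8 to 103 reads over all groups. Tie2-Ezh2-KO libraries lay above WT, the lowest of them close to the highest WT library, and overlapped with Vav-Ezh2-KO. The difference from WT was 1.75 (limma, standard error 0.36, adjusted p = 0.0157), and it did not pass with quantile normalization (adjusted p = 0.0547), limma-voom (adjusted p = 0.0858) or the Tie2-Ezh2-WT libraries as the only controls (adjusted p = 0.118, with a range from 0.00616 to 0.118 over 20 alternatives).

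The other 4 lists held no gene past the threshold in Tie2-Ezh2-KO against WT, by limma or by limma-voom on recovered reads. Unadjusted p was under 0.05 for 5 of 24 tested meiosis genes, 0 of 5 CatSper genes, 1 of 14 spermatid and sperm genes and 1 of 3 oocyte genes, beside 1552 of all 14154 genes. Some tested genes of these lists, and of the Tex symbols below, passed the filter through Tie2-Ezh2-KO libraries alone, such as *Gm1564* of the meiosis list. Nothing is therefore read from these unadjusted counts. Their median differences were 0.24, -0.21, -0.09 and 0.28. Among the partners of *Tex40* in the CatSper channel, *Catsper2* was at 0.347 RPKM in WT and 0.364 in Tie2-Ezh2-KO EMPs on average, and *Efcab9*, which binds the protein of *Tex40*, at 0.379 and 0.238. Of the 19 genes beside *Tex40* and *Tex101* whose symbol is Tex with a number, some of which are also in the meiosis and piRNA lists, 14 were tested and 0 passed by either method, with 1 at an unadjusted p under 0.05, beside the same 1552 of 14154, and a median of -0.02.

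In Vav-Ezh2-KO against WT, 0 of 61 tested genes of the 5 lists passed by limma or by limma-voom, 0 had an unadjusted p under 0.05, beside 1082 of all 13646 genes, and their median was 0.09, beside -0.02 for all genes tested. In Tie2-Ezh2-KO against Vav-Ezh2-KO, 1 of 68 passed, *Tdrkh*, which was higher (1.47%, beside 3.51% of all genes in either direction and 2.63% that were higher). An unadjusted p under 0.05 was found for 11 of the 68, beside 2342 of all 14120 genes. The median was 0.05, beside 0.04 for all genes. The count was 3 without Vav-Ezh2-KO replicate 9 (*Boll*, *Ddx43* and *Tdrkh*), beside 379 of all 14038 genes. Without Tie2-Ezh2-KO replicate 9 it was 2 (*Gm1564* and *Tdrkh*), beside 969 of all 14004 genes. *Ddx43* in the former fit and *Gm1564* in the latter passed the filter through Tie2-Ezh2-KO libraries alone, so nothing is read from these counts.

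All 24 listed repressors of germline genes had a row and were tested. By limma, and by limma-voom, 0 passed in either knockout against WT, with 2 of 24 at an unadjusted p under 0.05 in each contrast, beside 1552 of 14154 genes for Tie2-Ezh2-KO and 1082 of 13646 for Vav-Ezh2-KO. In Tie2-Ezh2-KO against Vav-Ezh2-KO, 2 of 24 passed, beside 3.51% of all genes. *Max*, the partner of MGA, was at 9.26, 8.71, 7.84, 5.11 and 7.16 RPKM in Tie2-Ezh2-KO and 15.3, 16.3, 17.5, 14.1 and 15.8 in Vav-Ezh2-KO libraries, and all Tie2-Ezh2-KO libraries lay below Vav-Ezh2-KO. The difference was -1.06 on the log2 scale (limma, standard error 0.17, adjusted p = 0.00224). The controls had 9.06, 13.9 and 6.32 RPKM in Tie2-Ezh2-WT and 17.3 and 13.6 in Vav-Ezh2-WT libraries, with overlap. Their means, 9.77 and 15.5, stood in the same order as the knockouts. The difference between the knockouts is therefore not separated from that between their controls. *E2f6* had 56.1, 40.1, 51.5, 51.7 and 56.4 RPKM in Tie2-Ezh2-KO and 35.3, 43.6, 36.2, 34.5 and 31.8 in Vav-Ezh2-KO libraries, and the groups overlapped. Its difference was 0.49 (limma, standard error 0.12, adjusted p = 0.0386), which passed in 9 of 19 alternatives (adjusted p from 0.00658 to 0.103).

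The 5 genes most like *Tex40* by Pearson correlation of log2(RPKM + 0.2) over the 15 libraries, among 14394 genes, were *Hba-x*, *Hoxb13*, *Cenpv*, *Usp44* and *Enpp1*, each with r = 0.94. The libraries share their groups, so any gene that is high in Tie2-Ezh2-KO libraries scores well. *Hba-x*, an embryonic globin, was at 38.4, 305, 339, 32.9 and 117 RPKM in the Tie2-Ezh2-KO libraries in the same order, against 0.316 to 2.67 in WT and 0.697 to 8.51 in Vav-Ezh2-KO libraries. *Hoxb13*, a homeobox gene, was at 0.852 to 1.99 RPKM in Tie2-Ezh2-KO and at 0 in all WT libraries.

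*Cenpv*, a centromere protein gene, was at 121 to 167 RPKM in Tie2-Ezh2-KO and 30.4 to 60.2 in WT EMPs. *Usp44*, a deubiquitinase gene, was at 3.31 to 5.46 and 0.219 to 0.879 RPKM, and *Enpp1*, a gene of pyrophosphate metabolism, at 1.61 to 3.37 and 0.216 to 0.775. The markers of primitive erythroid cells, *Hba-x*, *Hbb-bh1* and *Hbb-y*, all 3 with a row and none at 0, with *Hbb-bh1* the most abundant, were summed. The sums were 140, 126 and 142 RPKM in Tie2-Ezh2-WT, 65.2 and 118 in Vav-Ezh2-WT, 309, 585, 855, 192 and 284 in Tie2-Ezh2-KO and 85, 121, 59.9, 155 and 152 in Vav-Ezh2-KO libraries. Every Tie2-Ezh2-KO library lay above every other library, and Vav-Ezh2-KO overlapped with WT. The part of these markers in the level of *Tex40* was not tested. The 6 endothelial markers, with *Esam* the most abundant, summed to 18.1 to 26.7 RPKM in WT, 23.7 to 34.5 in Tie2-Ezh2-KO and 12.9 to 28.8 in Vav-Ezh2-KO EMPs, with overlap between the groups. *Esam* lay between 6.39 and 18.3 RPKM, *Tek* between 3.91 and 13.2 and *Kdr* between 0.622 and 2.99, and *Emcn* reached 4.03, *Cldn5* 0.351 and *Cdh5* 0.349 at most. More genes lay above 0.2 RPKM in Tie2-Ezh2-KO libraries, 11932 to 12288, than in WT libraries, 11544 to 11883, and the part of this in the germline values was not tested either.

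The promoters show what *Tex40* and the classical genes share in sequence and where they differ. All 9 genes have at least 1 promoter in the RefSeq table (GRCm38.p6). The 250 bases before the start of each promoter were searched on both strands for GCGGGA, bound by E2F6, and for CACGTG. The latter is the E-box bound by MGA and MAX and reads the same on either strand. The annotated spans of *Ddx4*, *Stk31* and *Tdrd1* begin upstream of these starts, so their windows lie partly or wholly within the spans. GCGGGA was found in 4 of the 9 genes, *Tex40*, *Ddx4*, *Mael* and *Sycp3*, which is 4 of their 12 promoters, beside 16.9% of 32851 promoters. CACGTG was found in 6, *Ddx4*, *Mael*, *Sycp1*, *Sycp3*, *Stk31* and *Tdrd1*, which is 8 of the 12 promoters, some of which overlap, beside 6.02% of all, and 1 of the 3 promoters of *Tdrd1* had no match. The window of *Tex40* held 7 CG dinucleotides, near the median of 6 over all promoters, and those of the other 8 genes held 3 to 31, with the fewest in a promoter of *Tdrd1* and the most in that of *Ddx4*. The sequences of *Tex40*, of *Tdrd1* (the farthest upstream of its 3 promoters) and of *Ddx4* are shown on the strand of the gene. Matches of either motif are in capitals, to compare a window without an E-box with those that have 1. A match is a description of the letters and not a binding site.
Tex40, chr19:6925381-6925630, minus strand: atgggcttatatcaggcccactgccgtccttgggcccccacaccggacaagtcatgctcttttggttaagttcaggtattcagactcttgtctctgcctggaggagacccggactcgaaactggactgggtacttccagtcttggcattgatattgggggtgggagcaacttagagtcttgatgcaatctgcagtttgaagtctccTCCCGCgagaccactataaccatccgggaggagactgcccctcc
Tdrd1, chr19:56825959-56826208, plus strand: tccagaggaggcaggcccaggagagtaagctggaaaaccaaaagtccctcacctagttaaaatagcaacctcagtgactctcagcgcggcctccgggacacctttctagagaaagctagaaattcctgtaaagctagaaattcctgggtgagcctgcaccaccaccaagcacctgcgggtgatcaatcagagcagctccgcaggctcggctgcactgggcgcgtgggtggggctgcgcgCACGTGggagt
Ddx4, chr13:112652311-112652560, minus strand: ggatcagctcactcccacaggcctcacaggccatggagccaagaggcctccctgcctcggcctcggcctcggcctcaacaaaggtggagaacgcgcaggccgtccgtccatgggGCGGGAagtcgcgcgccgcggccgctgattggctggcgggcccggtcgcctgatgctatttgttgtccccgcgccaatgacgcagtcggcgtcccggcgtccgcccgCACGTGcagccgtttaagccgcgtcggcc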

How the data were processed

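RNA-seq of 15 libraries of E10.5 yolk sac EMPs was analysed. The authors aligned single-end reads of 75 bases to GRCm38/mm10 with TopHat2 2.0.13 (1 alignment per read), counted RefSeq genes with featureCounts and deposited RPKM on a linear scale, per the methods and the submitters' processing notes. RPKM is not corrected for composition. The kit was SMARTer Ultra Low with 16 PCR cycles, so reads are not independent molecules and floors cover counting error only. Reads were recovered from the steps between RPKM values: 16876 of 16877 genes above 0 came out whole in every library, within 0.01 reads, and for 556 genes the length was chosen among multiples. Of 17454 symbols, 17372 matched RefSeq.

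Groups came from the labels. Each comparison was fitted on log2(RPKM + 0.2) with limma 3.58.1 in R 4.3.3 (lmFit, eBayes with trend). Genes entered when 1 or more of the compared libraries exceeded 0.2 RPKM, p was adjusted by Benjamini-Hochberg across all of them, and 0.05 was the threshold. Tables were made in Python 3.11.15. The 9 genes and the lists were chosen with earlier results of these data known, and the values of *Ddx43*, *Tdrd1* and *Dazl* in the WT and Tie2-Ezh2-KO libraries had been seen in a table of the authors, which is not used. Named genes were the 9 genes, *Ezh2*, germline list and repressor genes past the threshold in any comparison, the nearest 3 genes with a row on each side of *Tex40* and the 5 most correlated with it. *Catsper2*, *Efcab9*, *Boll*, *Gm1564* and the single markers named were chosen after their values were seen. Alternatives were pseudocounts of 1 and 0.05, 2 other filters, eBayes without trend, quantile and median scaling, all 15 libraries in one fit, limma-voom on recovered reads, the corresponding WT only, and leaving out each library. Replicates were compared with a chi-square of their reads, which was 16.4 to 133 per gene over 24 pairs of a group, so no library was counted as a copy. The labels assign no library to an experiment or batch. The code was tested on simulated data.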

Additional observations from a re-analysis of the deposited data

Results flagged for a closer look

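Groups of 5 libraries with a value above 0.2 RPKM were examined for the 9 genes, *Ezh2*, and germline list and repressor genes past the threshold in any comparison. In 2 of these 32 groups 1 library was far from the other 4 by Dixon's criterion, and chance gives about 1 in 20. Other genes, and groups below 0.2 RPKM, were not examined in this way. *Ddx43* was at 1.99 RPKM in Tie2-Ezh2-KO replicate 11, where the other 4 libraries of the group were at 0.709 to 1.01, and at 1.38 RPKM in Vav-Ezh2-KO replicate 9, where the others were at 0 to 0.157. Levels in the 2 knockouts differed, by the direct comparison of Tie2-Ezh2-KO with Vav-Ezh2-KO with limma, for *Tdrkh* (1.20 on the log2 scale, adjusted p = 0.00232), *Max* (-1.06, adjusted p = 0.00224) and *E2f6* (0.49, adjusted p = 0.0386). *Ezh2*, read as a check of the labels, also differed in this limma comparison (-0.46, adjusted p = 0.0269) and kept its call in 12 of 19 alternatives. The direct comparison is of levels, and whether each knockout differs from its own controls by another amount was not tested. The means of Tie2-Ezh2-WT and Vav-Ezh2-WT were 6.48 and 6.47 RPKM for *Tdrkh*, 9.77 and 15.5 for *Max*, 41.7 and 39.9 for *E2f6* and 35.5 and 41.7 for *Ezh2*. *Max* differed from WT in neither knockout past the threshold, with -0.59 in Tie2-Ezh2-KO (adjusted p = 0.377) and 0.46 in Vav-Ezh2-KO (adjusted p = 0.628).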

How the results depend on the processing

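The difference of *Tex40* between Tie2-Ezh2-KO and WT ranged from 2.53 to 3.11 over 16 alternatives. The count of germline list genes was 2 to 4 over 20 alternatives in Tie2-Ezh2-KO against WT (3 in the report), beside 187 to 493 of all genes. *Ddx43*, whose values had been seen when the lists were written, was called in all 20. *Gm1564* was added without Tie2-Ezh2-KO replicate 9. Without Tie2-Ezh2-KO replicate 11, 3 of the 4 called were higher. Nothing is therefore read from this range. In Vav-Ezh2-KO against WT the count was 0 in all 20. In Tie2-Ezh2-KO against Vav-Ezh2-KO it was 1, and 1 to 3 when each library was left out. With all 15 libraries in one fit it was 3 (*Ddx43*, *Gm1564* and *Tdrkh*), beside 630 of all 14394 genes. *Gm1564* passed the filter of that fit through Tie2-Ezh2-KO libraries alone, so nothing is read from the rise. Its cause was not tested. The alternatives for single genes other than *Tex40* and for all genes were added after seeing the data. *Tdrkh* passed under every alternative in both comparisons that called it, and so did *Max* against Vav-Ezh2-KO. *Ddx25* kept its call in 17 of 20 alternatives (adjusted p from 0.00616 to 0.118), *E2f6* in 9 of 19 (from 0.00658 to 0.103) and *Ezh2* in 9 of 20 against WT (from 0.0134 to 0.344) and 12 of 19 against Vav-Ezh2-KO (from 0.0143 to 0.0784). Against WT *Ezh2* lost its call without Tie2-Ezh2-KO replicate 7, 11 or 17, Tie2-Ezh2-WT replicate 4 or 10 or Vav-Ezh2-WT replicate 4 or 6 (adjusted p from 0.076 to 0.126), and against Vav-Ezh2-KO without Tie2-Ezh2-KO replicate 7, 11 or 17 or Vav-Ezh2-KO replicate 9, 10 or 26 (from 0.0571 to 0.0784). *E2f6* lost it without Tie2-Ezh2-KO replicate 7, 11, 13 or 17 or Vav-Ezh2-KO replicate 1, 10, 26 or 28 (from 0.0743 to 0.0999). Of all genes, 386 passed in Tie2-Ezh2-KO against WT, and 187 with the corresponding WT only, a fit of fewer libraries. In Tie2-Ezh2-KO against Vav-Ezh2-KO 495 passed, 969 without Tie2-Ezh2-KO replicate 9 and 320 without Vav-Ezh2-KO replicate 28, and quantile normalization moved the share of higher calls from 75.2% to 63.6%. In Vav-Ezh2-KO against WT 1 gene passed (*Sva*, named after its value was seen), and 0 to 2 in the alternatives. One read on a gene of 2 kb is worth 0.0122 to 0.0480 RPKM, so values near 0.1 rest on a few reads. No paired analysis was possible because the labels give no pairing of libraries between groups.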
